A study of Mus musculus with 30 samples.

Results

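The interferon-stimulated genes examined here are Isg15, Ifit1, Ifit3, Irf7, Irf9, Stat2, Bst2, Usp18 and Rsad2, chosen by symbol, which are 9 of the 56980 genes of the count table. Each symbol matched 1 Ensembl identifier, and all 9 genes had enough reads to be tested. RNA was taken from soleus, a slow-twitch calf muscle, in 30 C57BL/6J mice aged 3 to 4 months. Unloaded mice (HU) had no weight on the hindlimbs for 4 weeks, and ambulatory mice (AMB) moved freely for the same 4 weeks. The mKO mice had a muscle-specific deletion of AMPKα1 and AMPKα2, the catalytic subunits of the energy sensor AMPK, and the Ctrl mice carried both floxed genes without Cre. The HU mKO group held 8 mice (5 female), HU Ctrl 7 (3 female), AMB mKO 7 (2 female) and AMB Ctrl 8 (5 female). Because only the mKO mice carried Cre, loss of AMPK and presence of Cre cannot be told apart, and the labels do not name the promoter that drives Cre.

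Type I interferons bind a receptor whose kinases phosphorylate STAT2, which joins IRF9 in the complex ISGF3. ISGF3 binds the interferon-stimulated response element (ISRE) in front of genes that restrict viruses, and it also raises its own subunits and IRF7, a factor that amplifies interferon production. In muscle, this programme is best known from inflammatory myopathy, where it is strongly raised.

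Total counts per library ran from 12083415 to 20895263. Muscle fibre markers were present in every library, and Prkaa2, which encodes AMPKα2, averaged 80.1 ± 18.5 CPM (counts-per-million, TMM-normalised) in HU mKO mice, 254 ± 73.2 CPM in HU Ctrl mice, 60.3 ± 26.3 CPM in AMB mKO mice and 213 ± 28.3 CPM in AMB Ctrl mice (SD). Its log2 difference between mKO and Ctrl mice was -1.64 ± 0.24 after unloading (edgeR, adjusted p = 0.00192) and -1.89 ± 0.26 in ambulatory mice (adjusted p = 0.000367), whereas Prkaa1, which encodes AMPKα1 and is also expressed by other cells of muscle, stood at -0.60 ± 0.18 (adjusted p = 1.00) and -0.20 ± 0.18 (adjusted p = 0.891). The library of AMB mKO replicate 2 stood apart. It held 36.2 CPM of Prkaa1, the highest of the 30 libraries, and the next AMB mKO mouse held 17.9 CPM. Without it, Prkaa1 stood at -0.51 ± 0.16 in ambulatory mice (adjusted p = 1.00). Its 7 muscle fibre markers summed to 8883 CPM, the lowest of the 30 libraries, and its 7 adipocyte markers (9346 CPM) and 10 macrophage markers (446 CPM) were the highest.

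Promoter sequences of 8 of the 9 genes were in the RefSeq table (GRCm38.p6), each read here as the 250 bases before the start of transcription. The letters GAAANNGAAA, the core of the ISRE, or their reverse TTTCNNTTTC stood in 6 of these 8 genes, against 3.46% of all 27025 genes with such a window and 33.3% of 132 other interferon pathway genes. The 4 windows below were chosen to show how differently the core is arranged, with every match in capitals. They lie at chr4:156200819-156201068 on the minus strand (Isg15), chr19:34640639-34640888 on the plus strand (Ifit1), chr19:34583279-34583528 on the plus strand (Ifit3) and chr8:71537473-71537722 on the minus strand (Bst2), and all are written 5′ to 3′ toward the start.
Isg15: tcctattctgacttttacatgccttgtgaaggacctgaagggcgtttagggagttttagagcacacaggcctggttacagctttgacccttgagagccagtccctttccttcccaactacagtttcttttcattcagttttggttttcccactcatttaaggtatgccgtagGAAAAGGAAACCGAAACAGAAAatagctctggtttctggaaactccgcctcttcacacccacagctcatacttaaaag
Ifit1: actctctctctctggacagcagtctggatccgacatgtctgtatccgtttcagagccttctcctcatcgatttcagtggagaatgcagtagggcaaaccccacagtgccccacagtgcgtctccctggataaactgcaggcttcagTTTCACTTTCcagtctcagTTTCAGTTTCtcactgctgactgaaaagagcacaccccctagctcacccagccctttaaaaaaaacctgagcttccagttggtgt
Ifit3: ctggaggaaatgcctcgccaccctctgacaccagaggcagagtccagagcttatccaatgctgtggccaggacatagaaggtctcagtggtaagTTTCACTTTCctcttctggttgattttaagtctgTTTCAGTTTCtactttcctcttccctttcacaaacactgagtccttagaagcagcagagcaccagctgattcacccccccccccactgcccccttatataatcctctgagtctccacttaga
Bst2: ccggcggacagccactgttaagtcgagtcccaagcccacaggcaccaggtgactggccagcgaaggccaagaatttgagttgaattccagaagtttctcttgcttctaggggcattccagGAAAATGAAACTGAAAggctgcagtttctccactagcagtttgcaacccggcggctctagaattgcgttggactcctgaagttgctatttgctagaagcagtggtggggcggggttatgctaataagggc
Isg15 held 3 overlapping cores in 1 run of 22 bases that ended 56 bases before the start. Ifit1 and Ifit3, neighbours on chromosome 19, shared the same pair of cores in the same order, TTTCACTTTC and then TTTCAGTTTC, ending 94 and 75 bases before the start in Ifit1 and 146 and 112 bases before it in Ifit3. Bst2 held 2 overlapping cores, and their run overlapped a match to TTCNNNGAA, the core bound by STAT dimers, which 8.13% of genes hold. Stat2 had 1 core, TTTCAGTTTC, ending 212 bases before the start, and Rsad2 had 1, TTTCATTTTC, ending 110 bases before it. The single window of Irf7 and both windows of Irf9 had no match to these letters. A match describes the letters and shows no binding.

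All 9 genes were expressed at low levels in soleus. Scaled to CPM per kilobase of merged exons (GENCODE M21 gene models), the median over the 30 mice ran from Bst2 at 3.49, through Stat2 at 2.08, Ifit3 at 1.76, Irf9 at 1.72, Rsad2 at 1.66, Irf7 at 1.11 and Isg15 at 1.09, to Usp18 at 0.738 and Ifit1 at 0.694. Neighbours in this order overlapped in their ranges over mice, for example 1.88 to 10.1 for Bst2 and 1.22 to 5.24 for Stat2. No gene of the group was silent, and the single library without a read was HU mKO replicate 1 for Isg15, where 0 counts allow a level of up to 0.203 CPM.

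**Figure D1:**
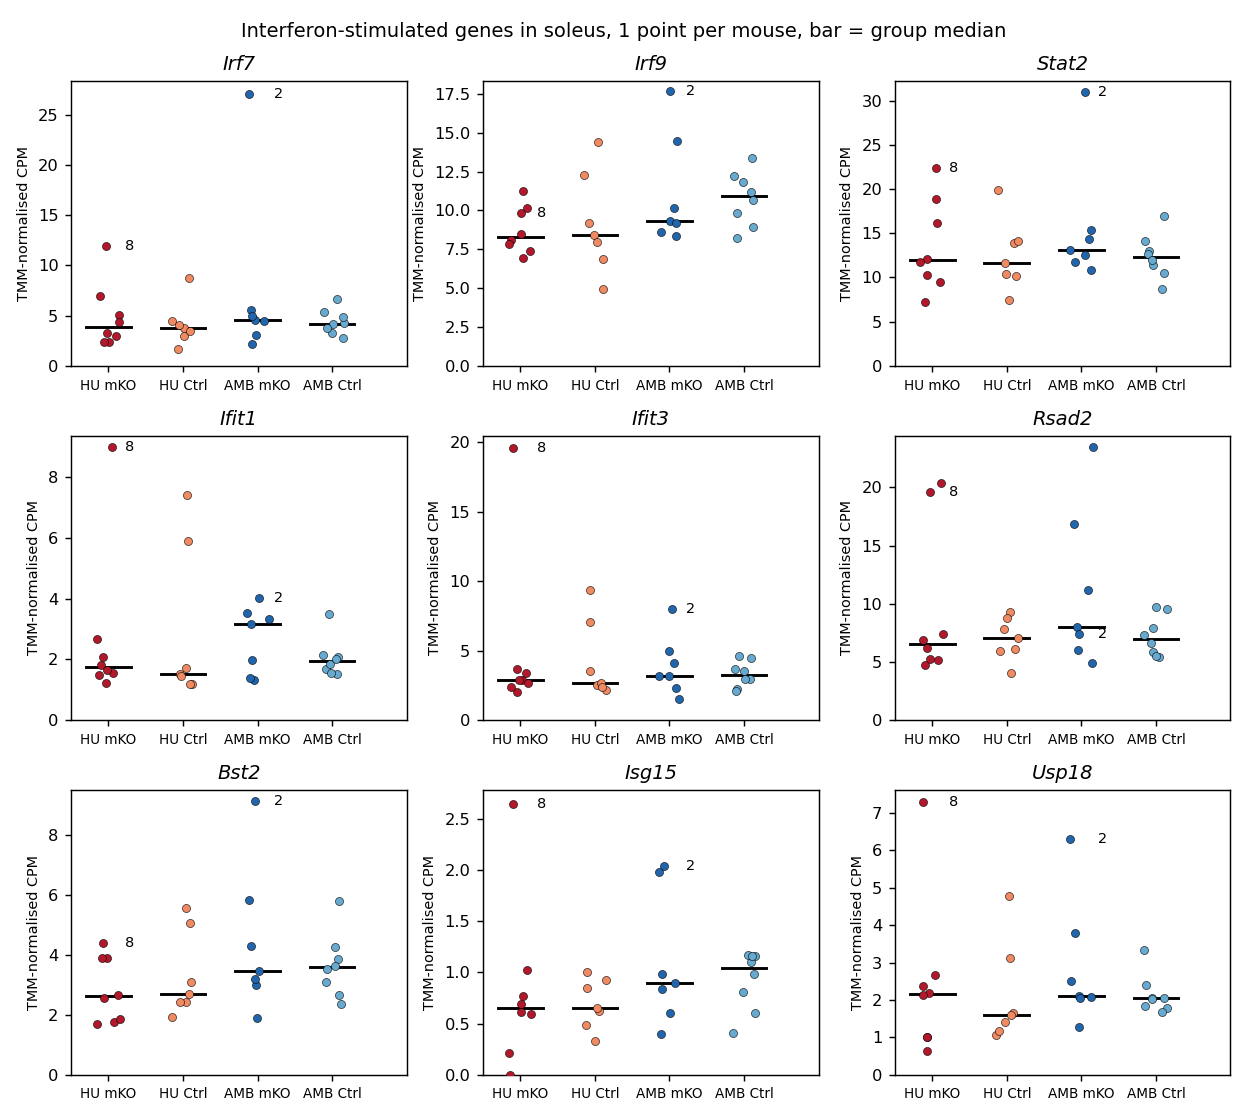
TMM-normalised CPM of each gene (vertical axes) in each mouse by group, with bars at group medians and the points of AMB mKO replicate 2 and HU mKO replicate 8 numbered. The groups overlap in every panel, and 1 or a few mice stand above the rest, with Irf7 at 27.1 CPM in AMB mKO replicate 2 and Ifit3 at 19.6 CPM in HU mKO replicate 8.

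Among the transcription factors, the 4 groups had close medians and a few high mice. Irf7 ranged from 2.37 to 11.9 CPM (median 3.83) in HU mKO mice and from 1.66 to 8.80 CPM (median 3.78) in HU Ctrl mice. In ambulatory mice, it ranged from 2.13 to 27.1 CPM (median 4.596) with mKO and from 2.77 to 6.62 CPM (median 4.17) with Ctrl. The 27.1 CPM belonged to AMB mKO replicate 2, and the next mouse of that group held 5.53 CPM, so 6 of the 7 AMB mKO mice lay within or below the range of AMB Ctrl mice.

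Stat2, the signal transducer that is specific to interferons, ranged from 7.21 to 22.4 CPM (median 11.97) in HU mKO mice and from 7.41 to 19.8 CPM (median 11.7) in HU Ctrl mice. It ranged from 10.8 to 31.03 CPM (median 13.2) in AMB mKO mice and from 8.73 to 17.0 CPM (median 12.3) in AMB Ctrl mice. The highest mice were the same as for Irf7: replicate 8 in HU mKO, replicate 3 in HU Ctrl and replicate 2 in AMB mKO.
Irf9, the DNA-binding subunit of ISGF3, ranged from 6.94 to 11.2 CPM (median 8.28) in HU mKO mice and from 4.92 to 14.4 CPM (median 8.45) in HU Ctrl mice. Ambulatory mice had 8.34 to 17.7 CPM (median 9.33) with mKO and 8.23 to 13.4 CPM (median 10.9) with Ctrl. HU mKO replicate 8 was unremarkable for Irf9, at 9.85 CPM, although it was the highest of its group for Irf7 and Stat2.

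Of the antiviral effectors, Ifit1, which binds viral RNA, ranged from 1.23 to 8.97 CPM (median 1.75) in HU mKO mice and from 1.18 to 7.41 CPM (median 1.51) in HU Ctrl mice. Its ambulatory values were 1.341 to 4.03 CPM (median 3.16) with mKO and 1.51 to 3.503 CPM (median 1.94) with Ctrl. Its highest values lay in unloaded mice of both genotypes, in HU mKO replicate 8 and in HU Ctrl replicates 3 and 2 (7.41 and 5.88 CPM), while the other 7 HU mKO mice did not pass 2.67 CPM.
Ifit3, a partner of Ifit1, ranged from 2.02 to 19.6 CPM (median 2.92) in HU mKO mice and from 2.15 to 9.35 CPM (median 2.71) in HU Ctrl mice. Ambulatory mice had 1.51 to 8.01 CPM (median 3.21) with mKO and 2.09 to 4.60 CPM (median 3.27) with Ctrl. HU mKO replicate 8 and HU Ctrl replicate 3 again held the highest values, followed by AMB mKO replicate 2 and HU Ctrl replicate 2 (7.04 CPM). Mouse Ifit3 has a near-identical copy, Ifit3b, and since the labels do not say how reads shared between copies were counted, its level is uncertain.

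Rsad2 encodes viperin, an enzyme that makes a chain-terminating nucleotide, and it followed other mice. It ranged from 4.71 to 20.4 CPM (median 6.53) in HU mKO mice and from 4.03 to 9.26 CPM (median 7.04) in HU Ctrl mice. It ranged from 4.92 to 23.5 CPM (median 7.98) in AMB mKO mice and from 5.42 to 9.75 CPM (median 7.01) in AMB Ctrl mice. The 4 highest mice were all mKO: AMB mKO replicate 5 (23.5 CPM), HU mKO replicates 4 and 8 (20.4 and 19.6 CPM) and AMB mKO replicate 4 (16.8 CPM). The next was AMB mKO replicate 6 (11.2 CPM). AMB mKO replicates 4 and 5 and HU mKO replicate 4 were also all males whose sample titles end in an unexplained letter a. HU mKO replicate 8 was a female of letter b, and HU mKO replicate 5, a male of letter a, was not among the highest. The part of sex or letter in these levels was not tested. The 3 erythroid markers, which mark red blood cells, summed to 2596 CPM in HU mKO replicate 4, 2219 CPM in AMB mKO replicate 5, 1430 CPM in AMB mKO replicate 4 and 1223 CPM in AMB mKO replicate 6, the 4 highest of the 30 libraries. HU mKO replicate 8 ranked 20 of 30, at 299 CPM, and the part of these cells in the Rsad2 levels was not tested. AMB mKO replicate 2, highest of all mice for Irf7 and Stat2, had 7.42 CPM of Rsad2.
Bst2, or tetherin, which holds budding virus at the cell surface, ranged from 1.70 to 4.41 CPM (median 2.62) in HU mKO mice and from 1.94 to 5.58 CPM (median 2.71) in HU Ctrl mice. Ambulatory mice had 1.90 to 9.14 CPM (median 3.46) with mKO and 2.36 to 5.82 CPM (median 3.59) with Ctrl. The highest value was that of AMB mKO replicate 2.

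Isg15, the ubiquitin-like protein that is attached to targets after interferon, was the least counted of the 9 genes. It ranged from 0 to 2.65 CPM (median 0.656) in HU mKO mice, from 0.330 to 1.01 CPM (median 0.653) in HU Ctrl mice, from 0.394 to 2.04 CPM (median 0.894) in AMB mKO mice and from 0.405 to 1.17 CPM (median 1.04) in AMB Ctrl mice. At this level a library held 0 to 45 reads of Isg15, so counting error adds to the spread between mice.
Usp18, which removes ISG15 and blocks the interferon receptor, ranged from 0.626 to 7.28 CPM (median 2.16) in HU mKO mice and from 1.05 to 4.77 CPM (median 1.59) in HU Ctrl mice. Ambulatory mice had 1.28 to 6.29 CPM (median 2.11) with mKO and 1.67 to 3.34 CPM (median 2.04) with Ctrl. HU mKO replicate 8 was highest for Isg15 and Usp18, and AMB mKO replicate 2 came next for both.

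**Figure D2:**
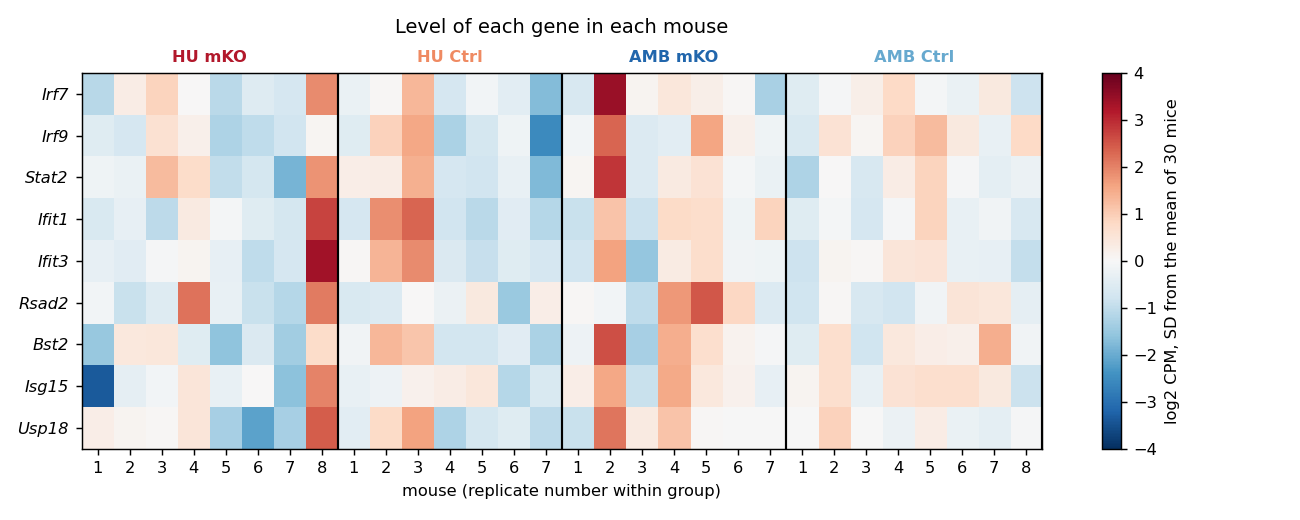
Level of each gene (rows) in each mouse (columns, by group), as log2 CPM in standard deviations from the gene's mean over 30 mice. AMB mKO replicate 2 and HU mKO replicate 8 are each the highest of 30 mice for 4 genes, and the Rsad2 row peaks in AMB mKO replicate 5 and HU mKO replicate 4.

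AMB mKO replicate 2 and HU mKO replicate 8 were each in the top 3 of 30 for 7 of the 9 genes. Those mice differed in their other transcripts. AMB mKO replicate 2 ranked 1 of 30 for macrophage markers and 30 of 30 for muscle fibre markers. HU mKO replicate 8 ranked 20 of 30 for macrophage markers (197 CPM), 30 of 30 for endothelial markers (391 CPM) and 4 of 30 for muscle fibre markers. HU Ctrl replicate 3, next in the mean over the 9 genes, ranked 3 of 30 for macrophage markers. The part of these cells in the levels was not tested, and in bulk RNA a change in the number of cells of a type and a change in RNA per cell cannot be told apart.

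Within ambulatory mice, no difference between mKO and Ctrl soleus passed the test for any of the 9 genes. None was called with edgeR's quasi-likelihood test at an adjusted p below 0.05, where 0.0177% of all 16932 tested genes were called (3 genes, with 1291 at an unadjusted p below 0.05), none had an unadjusted p below 0.05, and DESeq2 and limma with library weights called 0 of 9. Every edgeR value lay above 0, with a median log2 difference of 0.36 against 0.02 over all tested genes. Irf7 had the largest difference, 0.80 ± 0.41 on the log2 scale (SE, adjusted p = 0.670), with means of 7.40 ± 8.76 CPM in AMB mKO mice (SD, n = 7) and 4.38 ± 1.22 CPM in AMB Ctrl mice (SD, n = 8). Usp18 stood at 0.48 ± 0.41, Rsad2 at 0.46 ± 0.34, Ifit1 at 0.40 ± 0.44, Stat2 at 0.36 ± 0.23, Ifit3 at 0.33 ± 0.44, Bst2 at 0.33 ± 0.29, Isg15 at 0.29 ± 0.46 and Irf9 at 0.08 ± 0.19.

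The shared direction depended on AMB mKO replicate 2. Without it, 6 of the 9 values lay above 0 and 3 below, the median was 0.04, and Irf7 stood at -0.06 and Irf9 at -0.10. Rsad2 stood at 0.53. Limma with library weights put 7 of the 9 values below 0, all but Rsad2 and Ifit1, with Irf7 at -0.18. With both AMB mKO replicate 2 and HU mKO replicate 8 left out, 4 values lay above 0 and 5 below.

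**Figure D3:**
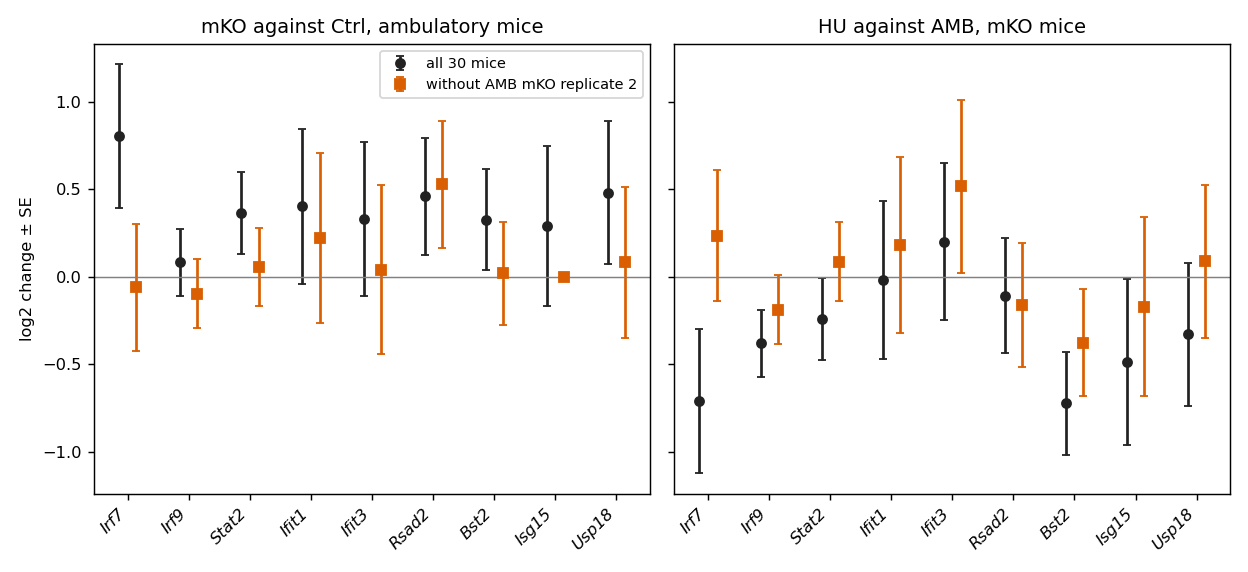
Log2 change of each gene with its SE (vertical axis) for AMB mKO against AMB Ctrl (left) and HU mKO against AMB mKO (right), over all 30 mice (circles) and without AMB mKO replicate 2 (squares, with no bar for Isg15 at the left, whose change is too near 0 for a stable SE). Irf7 stands at 0.80 with all mice and at -0.06 without that mouse at the left, and at -0.71 and 0.23 at the right.

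Within unloaded mice, no difference between mKO and Ctrl soleus passed the test either. None of the 9 was called, where 0.0177% of all tested genes were (3 genes, with 301 at an unadjusted p below 0.05), none had an unadjusted p below 0.05, and DESeq2 and limma called 0. The values lay on both sides of 0, with 5 above and 4 below and a median of 0.07 against 0.01 over all genes. Rsad2 had the largest positive value, 0.49 ± 0.33 (adjusted p = 1.00), at 9.45 ± 6.56 CPM in HU mKO mice (SD, n = 8) and 7.01 ± 1.81 CPM in HU Ctrl mice (SD, n = 7). Bst2 had the lowest, -0.31 ± 0.29. Without HU mKO replicate 8, 1 value lay above 0 and 8 below, with a median of -0.29. Rsad2 then stood at 0.21, and the lowest values were those of Ifit1 (-0.70) and Ifit3 (-0.58).

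In Ctrl mice, no change with unloading was called in edgeR for any of the 9 genes. Of all tested genes, 11.1% were called in these mice (1882 genes, 910 higher and 972 lower), and 9 genes are too few to set apart from that share. No member had an unadjusted p below 0.05, against 4467 of all genes, and DESeq2 called 0. Limma with library weights called Irf9 (log2 -0.42, adjusted p = 0.0362), which stood at -0.20 ± 0.19 in edgeR (adjusted p = 0.532). Ifit1 had the highest value, 0.53 ± 0.44 (-0.18 with limma), and Isg15 the lowest, -0.37 ± 0.47. Of the 9, 5 lay above 0 and 4 below, with a median of 0.04 against 0.03 over all genes.

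In mKO mice the values after unloading were mostly lower, but again none was called, where 10.1% of all tested genes were (1702 genes, 897 higher and 805 lower). DESeq2 and limma called 0. Of the members, Bst2 alone had an unadjusted p below 0.05 in edgeR, as did 4615 of all genes. It stood at -0.72 ± 0.29 (adjusted p = 0.109), with means of 2.85 ± 1.09 CPM in HU mKO mice (SD, n = 8) and 4.41 ± 2.42 CPM in AMB mKO mice (SD, n = 7). Irf7 had -0.71 ± 0.41 (adjusted p = 0.268) and Irf9 -0.38 ± 0.19 (adjusted p = 0.194), while Ifit3, the 1 positive value, stood at 0.20 ± 0.45. The median over the 9 was -0.33 against -0.04 over all genes, and 0.09 without AMB mKO replicate 2, when 5 values lay above 0 and 4 below. Bst2 was then at -0.38 (adjusted p = 0.447). Without HU mKO replicate 8, all 9 values lay below 0 with a median of -0.55. None was called, and Bst2, Irf7, Isg15 and Usp18 had an unadjusted p below 0.05, which 25.4% of all 16910 genes tested then had.

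The test of whether unloading acted differently in mKO than in Ctrl mice called 0% of all genes (0 of 16932 with edgeR, and 0 with DESeq2 and limma), so none of the 9. In edgeR 410 genes had an unadjusted p below 0.05, and none of the 9 was among them. Irf7 had the lowest value, -0.82 ± 0.60 (adjusted p = 0.999), and Rsad2 the highest, 0.03 ± 0.47. Of the 9 values 1 lay above 0 and 8 below, with a median of -0.29. Without AMB mKO replicate 2, Irf7 stood at 0.26, and 6 of the 9 values lay above 0. Without HU mKO replicate 8, all 9 lay below 0 with a median of -0.71. These 5 comparisons share groups, so their values are not independent of each other.

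The 9 genes tended to be high and low in the same mice. After the group and sex means were removed, all 36 pairs of genes had a positive correlation of log2 CPM over the 30 mice, with Pearson's r from 0.22 to 0.91 and a median of 0.64. By a two-sided permutation test within groups, 29 pairs had an adjusted p below 0.05 over the 36 pairs, and 30 did with Spearman's rho. Ifit1 and Ifit3, whose promoter windows share the pair of cores shown above, had the highest r, 0.908 (p = 1e-05, adjusted p = 6e-05), with rho of 0.824 (p = 1e-05, adjusted p = 9e-05). That p is the smallest the permutations could give. Irf9 and Stat2, subunits of ISGF3, followed at r = 0.837 (adjusted p = 6e-05; rho = 0.843, adjusted p = 9e-05), with Irf7 and Stat2 at r = 0.819 (adjusted p = 6e-05; rho = 0.721, adjusted p = 0.000405). Irf7 and Irf9 have no match to the ISRE core in their windows, and Ifit3, which has a pair of them, had r = 0.785 with Stat2 (adjusted p = 6e-05; rho = 0.793, adjusted p = 9e-05). Whether the cores bear on these correlations was not tested.

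**Figure D4:**
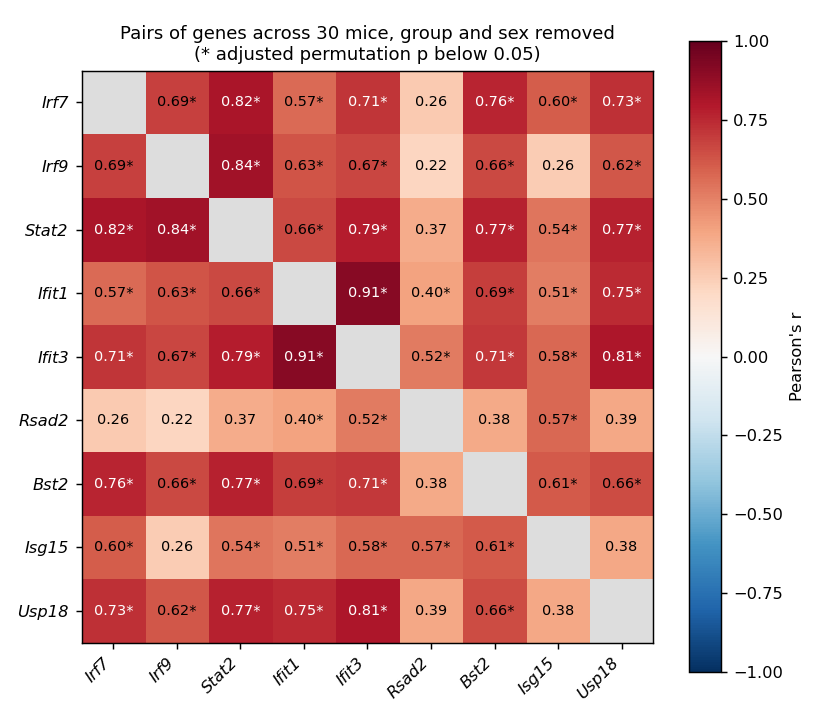
Pearson's r between each pair of genes over 30 mice after removal of group and sex means, with a star where the adjusted permutation p is below 0.05. Every r is positive, with 0.91 for Ifit1 and Ifit3 the highest, and the Rsad2 row and column are the palest.

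Rsad2 had the lowest r of the group, with Irf9. Its 8 pairs had a median r of 0.38, against 0.68 over the 28 pairs without it, a split made after the values were seen. Its r was 0.22 with Irf9 (adjusted p = 0.246; rho = 0.291), 0.26 with Irf7 (adjusted p = 0.240; rho = 0.334) and 0.57 with Isg15 (adjusted p = 0.0109; rho = 0.541). Its 8 pairs had a median r of 0.77 within HU mKO mice, where its high mice included replicate 8, but of -0.15 in HU Ctrl, 0.38 in AMB mKO and 0.06 in AMB Ctrl mice, over 7 or 8 mice each and with no test.

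Over all pairs, with AMB mKO replicate 2 and HU mKO replicate 8 left out, the median r was 0.55 (0.03 to 0.86) and 22 pairs had an adjusted p below 0.05. With the 2 mice farthest from the median of the first gene left out of each pair, the median was 0.58 and 26 pairs passed. Within single groups the median r was 0.71 in HU mKO, 0.77 in HU Ctrl, 0.67 in AMB mKO and 0.31 in AMB Ctrl mice, and single pairs fell as low as -0.42 in HU Ctrl and -0.20 in AMB Ctrl mice. Sample titles close with an unexplained letter, and within the mice of letter a, b or c the median was 0.54, 0.73 and 0.71. Each member's median r with all 16931 other tested genes lay between -0.03 and 0.02. Of these genes, 11.95% had r above 0.5 with Irf9, 9.403% with Irf7, 8.109% with Bst2, 7.058% with Stat2 and 4.855% with Usp18. For Isg15, Ifit1, Ifit3 and Rsad2 the share ran from 0.437% (Rsad2) to 1.04% (Ifit3). A median near 0 thus left room for many genes with a high r.

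Other genes followed the same mice. The 10 genes whose levels over the 30 mice were most like the mean of the 9 were Cmpk2 (r = 0.88), Rnf213 (0.85), Parp14 (0.85), Gbp3 (0.85), Dhx58 (0.84), Trim30a (0.84), Phf11d (0.83), Oasl1 (0.82), Zbp1 (0.81) and Ddx60 (0.81). Of them 8 belong to the wider lists of interferon pathway genes described next, which hold 139 of the 16923 genes ranked. Cmpk2, a mitochondrial nucleotide kinase, had r = 0.81 without AMB mKO replicate 2 and HU mKO replicate 8, and all 10 stayed at or above 0.69.

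Interferon itself was hardly sequenced. Of 21 interferon ligand genes, 15 had no read in any library, and the other 6 had 22 reads together over all libraries, so none could be tested. Of the 5 tested receptor chains none was called in any comparison. Ordered by role, the 173 wider genes in the table were ligands, receptors, signalling, regulatory factors, sensors, effectors, ISG15 conjugation and PARPs, GTPases, antigen presentation and chemokines. Of them 139 were tested, and none was called between mKO and Ctrl mice in either loading state or in the interaction. In ambulatory mice 112 of the 139 had higher values with mKO and 27 lower (median log2 0.27, against 0.02 over all tested genes, of which 45.8% had lower values), and 26 had an unadjusted p below 0.05, which 7.62% of all tested genes had. Without AMB mKO replicate 2, 79 of 140 tested wider genes had higher values with mKO and 61 lower, and the median was 0.02. Of these genes 1 then had an unadjusted p below 0.05, which 2.14% of all tested genes had. Over all mice, the 7 adipocyte markers had higher values in AMB mKO mice (median 2.22), as had 9 of 10 macrophage markers (median 0.31), and all 7 muscle fibre markers had lower values (median -0.27), with none called. Without that mouse the adipocyte and macrophage medians were 0.66 and 0.14, and the part of these cells was not tested.

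After unloading, 8 of the 139 wider genes were called in Ctrl mice (2 higher and 6 lower, against 11.1% of all genes) and 17 in mKO mice (1 higher and 16 lower, against 10.1%), with 5 called in both and 20 in either. With limma 22 and 11 were called, and 7 and 9 of these calls were shared with edgeR. Jak2, a receptor-associated kinase, rose in both genotypes, by 0.59 ± 0.19 in mKO mice (adjusted p = 0.0412) and by 0.77 ± 0.18 in Ctrl mice (adjusted p = 0.00601). The Jak2 call held in 21 of 30 fits with 1 library left out in mKO mice, and in all 30 in Ctrl mice. Jak2 averaged 64.9 ± 26.7 CPM in HU mKO and 59.7 ± 11.5 CPM in HU Ctrl mice, against 41.0 ± 7.31 CPM in AMB mKO and 35.7 ± 4.93 CPM in AMB Ctrl mice. Mavs, the mitochondrial adaptor of RNA sensing, fell in both, by 1.00 ± 0.24 in mKO mice (adjusted p = 0.00912) and by 1.25 ± 0.24 in Ctrl mice (adjusted p = 0.00119). It ranged from 53.3 to 97.3 CPM in HU mKO mice, against 28.6 to 228 CPM in AMB mKO mice. It ranged from 53.3 to 90.0 CPM in HU Ctrl mice, against 145 to 215 CPM in AMB Ctrl mice, so the Ctrl groups did not overlap.

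**Figure D5:**
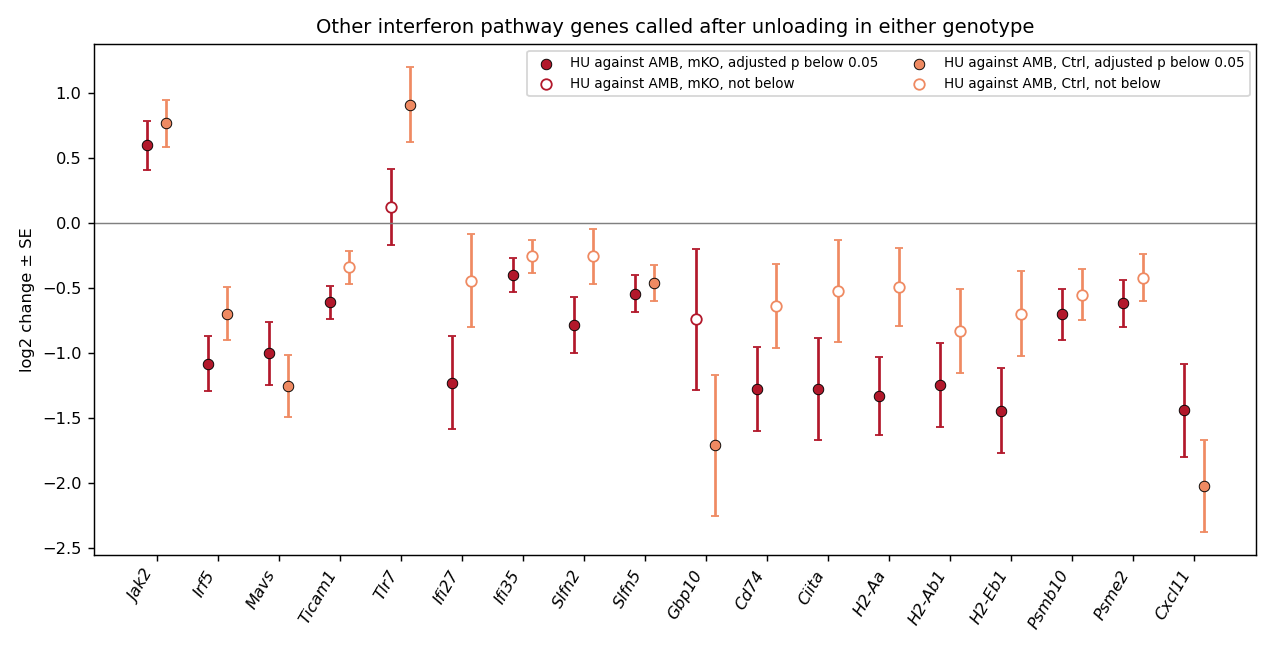
Log2 change with SE (vertical axis) after unloading in mKO mice (dark red) and Ctrl mice (orange) for wider genes called in either genotype and reported here, ordered by role, with filled points for an adjusted p below 0.05. Jak2 lies above 0 in both genotypes, Mavs, Irf5, Slfn5 and Cxcl11 below 0 in both, and the antigen presentation genes from Cd74 to Psme2 below 0 with filled points in mKO mice.

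Cxcl11, a chemokine induced by interferon, fell by 1.44 ± 0.36 in mKO mice (adjusted p = 0.0109) and by 2.02 ± 0.35 in Ctrl mice (adjusted p = 0.00053), with a mean of 1.41 ± 0.568 CPM in HU Ctrl and 5.68 ± 1.90 CPM in AMB Ctrl mice. The factor Irf5, which acts below Toll-like receptors, fell by 1.08 ± 0.21 in mKO mice (adjusted p = 0.00233) and by 0.70 ± 0.20 in Ctrl mice (adjusted p = 0.026). Slfn5 also fell in both, by 0.54 ± 0.14 in mKO mice and by 0.46 ± 0.14 in Ctrl mice. In Ctrl mice the RNA sensor Tlr7 rose by 0.91 ± 0.29 (adjusted p = 0.0391), and the GTPase Gbp10 (-1.71 ± 0.54) fell. Gbp10 has near-identical neighbours in its cluster, so its counts are uncertain.

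In mKO mice 7 of the 21 antigen presentation genes fell and none rose, where 10.1% of all tested genes were called. All 21 values lay below 0 (median -0.80, against -0.04 over all genes). The 5 class II genes of the list fell: H2-Eb1 by 1.44 ± 0.33 (adjusted p = 0.00652), H2-Aa by 1.33 ± 0.30 (adjusted p = 0.00628), Cd74 by 1.28 ± 0.32, their regulator Ciita by 1.28 ± 0.39 and H2-Ab1 by 1.25 ± 0.32. H2-Aa ranged from 10.5 to 19.1 CPM in HU mKO mice, against 14.1 to 86.2 CPM in AMB mKO mice, so the groups overlapped, and reads shared among H2 genes leave single members uncertain. Psmb10 and Psme2, parts of the immunoproteasome and its activator, fell by 0.70 ± 0.20 and 0.62 ± 0.18. In Ctrl mice all 21 values lay below 0 as well (median -0.29, none called). Of them 5 (23.8%) had an unadjusted p below 0.05, which 26.4% of all tested genes had. There the same 5 class II values ran from -0.83 (H2-Ab1) to -0.49 (H2-Aa) without a call, and the interaction did not pass for any of them (H2-Aa -0.84 ± 0.43, adjusted p = 0.999). In mKO mice Ticam1 (-0.61 ± 0.13), Ifi27 (-1.23 ± 0.36), Ifi35 (-0.40 ± 0.13) and Slfn2 (-0.78 ± 0.21) fell as well. With 1 library left out, the call held in all 30 fits for Ticam1, 29 for Slfn2, 24 for Ifi27 and 18 for Ifi35. Of 9 other settings, it held in 9, 4, 5 and 5.

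Macrophage and adipocyte markers had lower values beside these genes in mKO mice, whereas both tested neutrophil markers had higher ones (median log2 0.92, none called) and 4 of 10 endothelial markers did (median -0.11, 1 called, lower). All 10 macrophage markers had lower values after unloading in mKO mice (median log2 -0.40, none called), and their sum ranged from 151 to 243 CPM in HU mKO and from 134 to 446 CPM in AMB mKO mice. In Ctrl mice 9 of the 10 had higher values (median 0.19, none called), with sums of 137 to 359 CPM in HU Ctrl and 121 to 310 CPM in AMB Ctrl mice. The 4 B cell markers summed to 0.209 to 1.23 CPM in HU mKO and 0.328 to 5.39 CPM in AMB mKO mice, too few reads for a test, and all 7 adipocyte markers had lower values in HU mKO mice (median -1.61, none called). Their part in the class II result was not tested. Without AMB mKO replicate 2, 7 of the 17 calls in mKO mice remained among 10 in all, with H2-Aa (adjusted p = 0.0344), H2-Eb1 (0.0283), Cd74 (0.0475), Irf5, Mavs, Ticam1 and Cxcl11 still called, and with H2-Ab1 (0.0559), for example, no longer so. Without that mouse, 17 of the 21 antigen presentation values lay below 0 in mKO mice (median -0.24). Of the 21, 3 were then called, where 2302 of all 17055 tested genes were. The macrophage median was then -0.23, and 6 of the 7 adipocyte markers had higher values in HU mKO mice (median 0.32). In Ctrl mice all 8 calls remained among 12.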

How the data were processed

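Total RNA libraries of 30 mice were sequenced on an Illumina NovaSeq, per the labels. The authors deposited raw counts of reads per Ensembl gene, without normalisation. Per the submitters' processing notes, tools were DESeq2 1.34.0, featureCounts 1.6.3, STAR 2.7.9a and cutadapt 1.16, with builds GRCm39 and mm39. No source used here gives the annotation, the strand setting or the handling of reads shared by genes, so overlapping and near-identical genes are uncertain. Protocol texts about people and myotubes were not used. Samples are separate mice, and littermates are not marked.

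All 30 columns carried a labelled title. A symbol was found for 52073 of 56980 identifiers. The 9 genes and the lists were chosen with earlier results of these data known. CPM are TMM-normalised. The 16932 genes passing filterByExpr (minimum count 10) were fitted in edgeR 4.0.16 (R 4.3.3) by quasi-likelihood, with group and sex over 30 libraries. Called, rose and fell mean an adjusted p (Benjamini-Hochberg, all tested genes) below 0.05. Correlations used residuals of log2 CPM (prior count 2) and 100000 permutations within groups. A count of 0 allows up to 3 counts, for counting error only.

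Symbols came from a gene name table by Ensembl identifier, with RefSeq symbols where it gave none. Promoters came from a RefSeq table on GRCm38.p6, an older build than the authors', and the coordinates printed belong to it. Exon lengths came from GENCODE M21. Named were all 9 members, wider genes called, up to 4 per role by p, and the 10 genes most like the members. Other called genes were named after their values were seen. For roles without a call, naming the 2 genes with the smallest p was planned but not done. The fit was run on simulated counts that gave every gene the same spread and changed only genes with many reads. That run does not cover genes with few reads or single high mice. Alternatives were RLE size factors, DESeq2 1.42.0, limma 3.58.1 with library weights, other low-count filters, no sex term, an added letter term, compared groups alone, single sexes, unscaled CPM and each library left out. Leaving out AMB mKO replicate 2 with HU mKO replicate 8, and the counts of direction over whole lists without these libraries, were chosen after seeing the data. Some of the wider genes counted are not reported here by name.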

Additional observations from a re-analysis of the deposited data

Results flagged for a closer look

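Of 36 combinations of gene and group, 9 had a highest or lowest mouse whose gap to the next was wider than Dixon's 95% limit allows, and in all 9 it was the highest. For normally spread values, chance gives such a gap in about 1 in 20 combinations, and the CPM were not log-transformed. HU mKO replicate 8 accounted for 4 of them, with 19.6 CPM of Ifit3 against 3.70 CPM in the next mouse of its group, 8.97 CPM of Ifit1 against 2.67 CPM, 7.28 CPM of Usp18 against 2.67 CPM and 2.65 CPM of Isg15 against 1.03 CPM. AMB mKO replicate 2 accounted for 2, with 27.1 CPM of Irf7 against 5.53 CPM and 31.03 CPM of Stat2 against 15.4 CPM. HU Ctrl replicate 3 held 8.80 CPM of Irf7 against 4.47 CPM in the next mouse. Among AMB Ctrl mice, replicate 5 held 3.503 CPM of Ifit1 against 2.15 CPM and replicate 2 held 3.34 CPM of Usp18 against 2.40 CPM. Values of the 9 genes are correlated within a mouse, so these combinations are not independent.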

How the results depend on the processing

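None of the 9 genes was called in any comparison when any 1 library was left out, and limma with library weights was the 1 setting that called a member (1, Irf9, in HU against AMB Ctrl mice). No paired analysis was possible because replicate numbers follow accession order and pair no mice. Of the 9 genes in 5 comparisons, 20 changes were followed under every setting, and those that changed sign are given first. AMB mKO over AMB Ctrl turned below 0 for Isg15 (-0.22), Ifit3 (-0.11), Irf7 (-0.18), Irf9 (-0.16), Stat2 (-0.014), Bst2 (-0.026) and Usp18 (-0.14) with limma. It did so for Isg15 (-0.069), Irf9 (-0.011) and Bst2 (-0.13) in males only, and for Isg15 (-0.10), Ifit3 (-0.13), Irf7 (-0.12), Irf9 (-0.10) and Usp18 (-0.047) without both AMB mKO replicate 2 and HU mKO replicate 8. With single libraries left out it ran from -6.27e-05 to 0.42 for Isg15, from -0.061 to 0.97 for Irf7 and from -0.10 to 0.17 for Irf9, the lowest without AMB mKO replicate 2. HU over AMB mKO turned for Ifit3 (-0.087 in males and -0.094 without both; -0.47 to 0.52 with single libraries out) and Irf7 (0.12 with limma; -0.98 to 0.23), and HU over AMB Ctrl for Ifit1 (-0.18 with limma). The interaction turned for Irf7 (0.33 with limma, 0.048 without both; -1.05 to 0.26) and for Rsad2 (-0.18 without sex, -0.055 with the letter, -0.11 in males, -0.048 without AMB mKO replicate 2, -0.24 without both; -0.30 to 0.25). Other changes were followed only with the 2 high libraries left out. Without AMB mKO replicate 2, HU over AMB mKO also turned for Ifit1 (0.18), Stat2 (0.086) and Usp18 (0.089), and the interaction for Isg15 (0.23), Ifit3 (0.090), Irf9 (0.020), Stat2 (0.064) and Usp18 (0.085), with Irf9 at 0.0075 without both. HU mKO over HU Ctrl turned for Irf7 (0.20) there, and without HU mKO replicate 8 for Isg15 (-0.29), Ifit3 (-0.58), Stat2 (-0.036) and Usp18 (-0.31), as it did without both (-0.25, -0.56, -0.0094 and -0.28). HU over AMB Ctrl turned for Irf7 (-0.025) without AMB mKO replicate 2, for Usp18 (-0.017) without HU mKO replicate 8, and for Irf7 (-0.077), Stat2 (-0.0085) and Usp18 (-0.073) without both.

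Wider genes called in HU against AMB Ctrl mice numbered 3 without a filter, 15 with those groups alone, 0 in females, 2 in males, 22 with limma, 13 without both libraries and 4 to 12 with single libraries out. In mKO mice they numbered 11 without a filter, 8 with those groups alone, 0 in females, 4 in males, 11 with limma, 10 without both and 10 to 26 with single libraries out. Over all genes, Ctrl calls were 1225 without a filter, 3098 with those groups alone, 26 in females, 302 in males, 4257 with limma and 1264 to 2685 with single libraries out. The mKO calls were 987, 608, 2 and 763 under the first 4 of these, 2591 with the letter and 954 to 2302 with single libraries out. Between genotypes, calls in ambulatory mice were 1 with those groups alone, 0 in females, 9 with DESeq2 and 2 to 5 with single libraries out, and in unloaded mice 0 in females, 1 in males and 2 to 3 with single libraries out. The cause of these shifts was not tested, and the single-sex fits also held fewer mice. Low counts limit Isg15 most.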
